A study of Mus musculus with 8 samples.

Results

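The 35 genes described here encode the folding machinery of the endoplasmic reticulum (ER), the sensors of the unfolded protein response, and the ER-associated degradation (ERAD) system. They were chosen by name from a list, though with earlier results of these data known. All 35 were found among the 56941 gene identifiers of a count table from bulk RNA sequencing of jejunum, the stretch of small intestine between duodenum and ileum. The libraries came from naive mice of 2 inbred strains: C57BL/6 (B6; replicates 2, 3, 4 and 5) and C3H/HeJ (C3H; replicates 1, 3, 4 and 5). Per the labels, the mice were untreated, their age is given as 6 to 8 weeks, and the strains shared cages for 8 weeks or more. After so long in shared cages, the stated age can hardly be that at harvest. The age at harvest is not stated. All 8 libraries belong to batch 1. No transgene or agent is named for either strain, and it is not stated whether a library is 1 mouse or a pool, so the p-values speak of differences between libraries, which may be technical.

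Secreted and membrane proteins enter the ER through the translocon, fold with the help of chaperones, gain disulfide bonds from isomerases, and are exported or, when folding fails, returned to the cytosol for degradation. When unfolded proteins build up, 3 membrane sensors respond: IRE1 (Ern1) splices the messenger of the transcription factor XBP1, ATF6 is cut in the Golgi to release a transcription factor, and PERK (Eif2ak3) slows translation while ATF4 is made. In the small intestine, goblet, Paneth and plasma cells carry a heavy secretory load, and absorptive enterocytes use the isomerase P4hb also as a subunit of the microsomal triglyceride transfer protein. These are facts of background and were not measured here.

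Library totals ran from 37205896 to 58251332 counts. Markers of enterocytes summed to 48890 to 81110 CPM (read counts relative to library size, scaled by the trimmed mean of M values), while those of ileum stayed at or under 1.72 CPM, of stomach at or under 1.28 and of colon at or under 10.8. Pancreatic acinar markers summed to 3504 CPM in C3H 3 and 1544 in C3H 5, against 32.8 to 310.4 in the other 6 libraries, and all 13 had counts. C3H reads were counted against a genome built from B6, which can lower counts where the strains' sequences differ.

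Several of these genes share a promoter motif that links them to the stress response, so the sequences are shown before the values. The ER stress response element (ERSE), a site bound by ATF6 together with the factor NF-Y, was searched as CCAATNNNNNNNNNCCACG on both strands of the RefSeq promoters of build GRCm38.p6, from 250 bases before to 50 bases after each start; the counts themselves were made on GRCm39. Of 32851 promoters 39 (0.119%) held a match, and 10 of the 31 genes of the list with a promoter in that table (32.3%) did. The motif was defined in the literature on genes of this kind, so this share is a description. Hsp90b1 held a pair of matches, and none overlapped a match of the motifs given further on. The matches read, in the motif's own direction and with its fixed letters in capitals:
Dnajc3: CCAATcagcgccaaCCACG
Hspa5: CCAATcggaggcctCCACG
Hsp90b1, far match: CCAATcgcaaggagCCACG
Hsp90b1, near match: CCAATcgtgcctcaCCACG
Calr: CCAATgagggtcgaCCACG
Canx: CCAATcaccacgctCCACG
Pdia6: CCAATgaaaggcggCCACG
Ero1lb: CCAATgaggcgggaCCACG
Creld2: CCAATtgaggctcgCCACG
Syvn1: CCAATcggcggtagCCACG
Derl3: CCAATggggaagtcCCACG

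The whole Dnajc3 promoter is given because Dnajc3 was the only one of these 10 genes that passed the strain test with all 8 libraries fitted. It lies at chr14:118937682-118937981 on the plus strand (GRCm38.p6), and its match starts 105 bases before the start of transcription. The Hspa5 promoter, at chr2:34771840-34772139 on the plus strand, stands beside it as that of the main ER chaperone, with a match starting 65 bases before the start. In both, the capitals mark the fixed letters of the ERSE.
Dnajc3: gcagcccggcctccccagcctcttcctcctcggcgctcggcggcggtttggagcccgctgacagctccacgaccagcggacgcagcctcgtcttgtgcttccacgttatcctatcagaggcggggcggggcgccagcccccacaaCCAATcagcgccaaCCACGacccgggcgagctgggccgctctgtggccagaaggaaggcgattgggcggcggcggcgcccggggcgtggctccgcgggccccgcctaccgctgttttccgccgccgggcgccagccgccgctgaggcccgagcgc
Hspa5: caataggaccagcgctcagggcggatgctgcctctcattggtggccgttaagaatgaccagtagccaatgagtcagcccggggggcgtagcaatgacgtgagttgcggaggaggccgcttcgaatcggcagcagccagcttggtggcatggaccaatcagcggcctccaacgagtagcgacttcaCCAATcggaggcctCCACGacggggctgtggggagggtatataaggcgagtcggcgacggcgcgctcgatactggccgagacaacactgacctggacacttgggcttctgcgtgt

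A second form, ERSE-II, was searched as ATTGGNCCACG and matched 12 of the 32851 promoters (0.0365%). Herpud1 and Dnajb11 were the 2 members among them. The amino acid response element (CARE), to which ATF4 binds, was searched as TGATGNAA and matched 1304 promoters (3.97%) and those of Asns, Trib3 and Herpud1. Herpud1 thus held both kinds of match, 52 and 112 bases before its start, and Asns a CARE match 23 bases before its start. They are printed with the fixed letters of each match in capitals, the Herpud1 promoter at chr8:94386179-94386478 on the plus strand and the Asns promoter at chr6:7693160-7693459 on the minus strand (both GRCm38.p6). A match is a run of letters and was not tested as a bound site. Hyou1, Manf, Atf6 and Derl1 had no entry in the promoter table.
Herpud1: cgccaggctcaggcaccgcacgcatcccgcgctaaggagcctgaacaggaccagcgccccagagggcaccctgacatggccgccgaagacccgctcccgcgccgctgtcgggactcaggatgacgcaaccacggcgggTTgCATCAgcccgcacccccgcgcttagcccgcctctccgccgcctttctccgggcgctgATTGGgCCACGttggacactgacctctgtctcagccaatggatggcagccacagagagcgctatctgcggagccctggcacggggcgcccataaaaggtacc
Asns: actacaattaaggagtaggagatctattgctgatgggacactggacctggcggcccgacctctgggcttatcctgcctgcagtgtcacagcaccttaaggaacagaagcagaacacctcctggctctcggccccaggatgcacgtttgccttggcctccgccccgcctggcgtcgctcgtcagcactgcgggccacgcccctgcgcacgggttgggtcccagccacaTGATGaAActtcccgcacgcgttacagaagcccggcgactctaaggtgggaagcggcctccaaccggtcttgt

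Few of these genes passed the strain test. Of the 35, all tested, Dnajc3 rose and Atf6 fell in C3H, and 33 did not pass the threshold, which does not show that their levels were alike (quasi-likelihood test of edgeR over 18025 genes, threshold 0.05 on the Benjamini-Hochberg adjusted p). That is 5.71% of the list, against 21.4% of all genes tested (11.3% higher and 10.1% lower in C3H). The median log2 fold change, C3H over B6, was -0.05 over the list and 0.03 over all genes. The 4 values of 1 strain lay wholly above or below those of the other for 4 members, Dnajc3, Ero1l, Atf6 and Atf4, against 24.4% of all genes. For 30 of the 35 the 95% interval of the fold change stayed within 1.5-fold in either direction, as it did for 53.4% of all genes tested. The exceptions were Atf6, Trib3, Asns, Herpud1 and Derl3. Low counts widen such intervals, and all genes tested were not matched to the list by level, so the 2 shares are not like for like. The largest difference in the list was 1.45-fold, that of Atf6.

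The number of calls depended on single libraries. Without C3H 1, 6 members passed, against 19.9% of all genes: Dnajc3 and Trib3 higher, and Atf6, Atf4, Canx and Derl3 lower. Without B6 4, 5 passed, against 19.4% of all genes: Dnajc3, Herpud1 and Ero1l higher, and Atf6 and Asns lower. Without the 4 libraries with the most pancreatic transcripts in an earlier analysis (B6 2, B6 3, C3H 3 and C3H 5), edgeR called 0 members, against 9.02% of all genes, and 2 members had an unadjusted p under 0.05, against 20.2%. That fit kept only B6 4 and B6 5 with C3H 1 and C3H 4, so it had less power. By the markers used here, B6 3 (113.5 CPM), left out, was close to C3H 4 (100.4 CPM), kept. DESeq2 called 4 members, Atf4 and Herpud1 besides Dnajc3 and Atf6, against 23.9% of all genes. With library totals as the only scaling 5 passed, Dnajc3, Herpud1, Trib3, Ero1l and Atf6, against 20.0% of all genes.

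**Figure D1:**
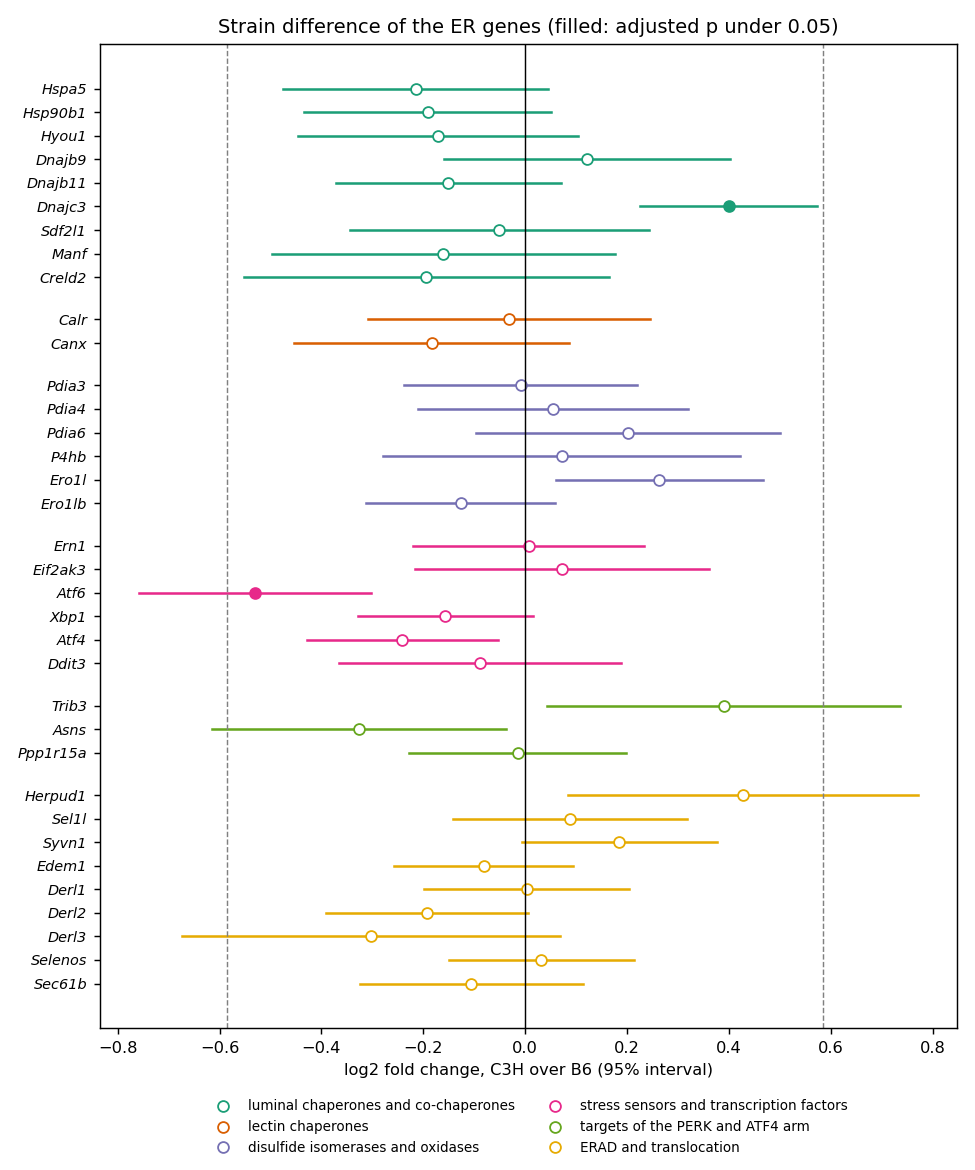
Log2 fold change of each of the 35 genes, C3H over B6 (horizontal axis), with its 95% interval, coloured by role; filled points passed the test and dashed lines mark 1.5-fold. Only Dnajc3 (0.40) and Atf6 (-0.53) are filled, and most intervals cross 0.

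The sensors and their transcription factors held the one fall. Atf6 (ENSMUSG00000026663), the membrane-bound factor that induces chaperone genes once it is cut, stood at 59.6, 59.7, 73.9 and 52.6 CPM in B6 2, 3, 4 and 5. In C3H 1, 3, 4 and 5 it stood at 44.8, 42.96, 40.3 and 42.03 CPM. Every C3H library was below every B6 library, B6 4 was the highest, and the C3H values lay close together. The mean was 61.5 ± 8.96 CPM in B6 and 42.5 ± 1.87 in C3H (SD, n = 4 each), a log2 fold change of -0.53 (standard error 0.10, adjusted p = 0.00353). Atf6 passed in 18 of 19 alternative fits, with log2 fold changes of -0.60 to -0.43, and lost the call without the 4 pancreas-rich libraries (log2 fold change -0.58, adjusted p = 0.0859).

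The messengers of the other sensors did not pass. Ern1, which encodes IRE1 alpha, averaged 29.2 ± 4.06 CPM in B6 and 29.3 ± 2.09 in C3H (SD, n = 4 each), with a 95% interval of the log2 fold change from -0.22 to 0.23. Eif2ak3, the gene of PERK, averaged 40.1 ± 5.94 and 42.2 ± 6.76 CPM (interval -0.22 to 0.36). The test compares gene totals, so splicing of Xbp1, cleavage of ATF6 and phosphorylation by PERK were not measured.

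Atf4, the factor made when PERK slows translation, had 139, 142, 136 and 156 CPM in B6 2, 3, 4 and 5 and 134, 111, 123 and 117 in C3H 1, 3, 4 and 5. The strains did not overlap, but the gap between B6 4 and C3H 1 was small. On the log2 scale C3H differed by -0.24 ± 0.09 (standard error; adjusted p = 0.0685), and Atf4 passed without C3H 1 (-0.30, adjusted p = 0.0287) and in DESeq2 (-0.26, adjusted p = 0.0225). Over all 19 alternatives its adjusted p ran from 0.0225 to 0.600. Xbp1, the target of IRE1 and a factor plasma and Paneth cells need, had 176 to 204 CPM in B6 and 163 to 178 in C3H, overlapping by a narrow margin (log2 fold change -0.16, adjusted p = 0.190). Ddit3, the stress-induced factor CHOP, was low in every library, at 10.5 to 15.6 CPM, and did not pass (log2 fold change -0.09, adjusted p = 0.683); 68 bases of its exons overlap those of Mars on the opposite strand in GENCODE M21, and whether the counting used strand is not given in the sources used here.

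The 3 members of the list downstream of PERK and ATF4 gave 0 calls in edgeR, against 21.4% of all genes. DESeq2 also called 0, against 23.9% of all genes. In edgeR 2 had an unadjusted p under 0.05, against 33.1% of all genes, and in so short a list these counts say little. The fold changes of Trib3 and Asns had opposite signs in all 19 alternatives. Trib3, a pseudokinase that restrains ATF4, had 22.1, 27.7, 29.9 and 26.5 CPM in B6 2, 3, 4 and 5 and 26.2, 30.6, 37.2 and 45.2 in C3H 1, 3, 4 and 5. C3H 3, C3H 4 and C3H 5 were above all B6 libraries, C3H 3 by a narrow margin, while C3H 1 lay inside the B6 range (log2 fold change 0.39, standard error 0.16, adjusted p = 0.108). Asns, asparagine synthetase, had 17.3, 19.3, 14.2 and 21.9 CPM in B6 and 15.8, 15.4, 14.3 and 12.5 in C3H, in the same order of replicates. Only B6 4 reached down into the C3H range (log2 fold change -0.33, standard error 0.13, adjusted p = 0.106), and without B6 4 Asns passed (-0.43, adjusted p = 0.0220). Ppp1r15a, also called GADD34, which restores translation by directing the removal of the phosphate from eIF2 alpha, averaged 5.64 ± 0.22 CPM in B6 and 5.59 ± 0.34 CPM in C3H (SD, n = 4 each; interval of the log2 fold change -0.23 to 0.20).

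**Figure D2:**
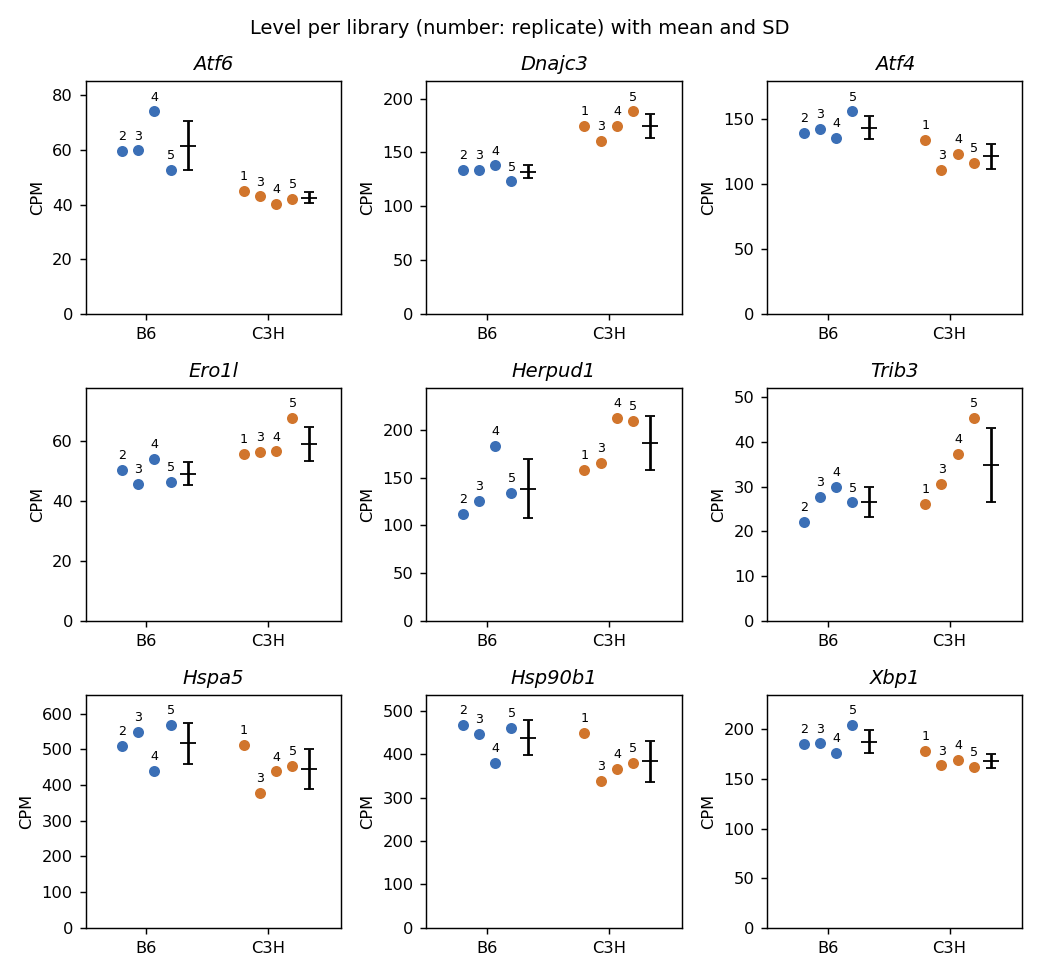
Level in CPM (vertical axis, from 0) of 9 of the genes in each library, by strain; the number at each point is the replicate and the bar gives the mean and SD of 4 libraries. Atf6, Atf4, Dnajc3 and Ero1l separate the strains, and the other 5 overlap.

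Among the luminal chaperones and co-chaperones, 1 of 9 passed (11.1%, against 21.4% of all genes). Dnajc3 (ENSMUSG00000022136), known as P58IPK, is a partner of the chaperone BiP that also inhibits PERK. It had 134, 134, 138 and 123 CPM in B6 2, 3, 4 and 5 and 174, 161, 175 and 188 CPM in C3H 1, 3, 4 and 5. The lowest C3H library was above the highest B6 library. The mean rose from 132 ± 6.41 to 174 ± 11.1 CPM (SD, n = 4 each), 1.32-fold, with a log2 fold change of 0.40 (standard error 0.08, adjusted p = 0.00384). The call held in 18 of 19 alternatives, with log2 fold changes of 0.36 to 0.46, and was lost without the 4 pancreas-rich libraries (0.41, adjusted p = 0.176).

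The most abundant luminal chaperones had overlapping levels in the strains. Hspa5, the gene of BiP, which binds unfolded chains and holds the sensors inactive, had 510, 549, 439 and 568 CPM in B6 2, 3, 4 and 5 and 512, 378, 438 and 453 in C3H 1, 3, 4 and 5. B6 4 was low for its strain and C3H 1 high for its own. The fold change, -0.22 on the log2 scale, had a 95% interval of -0.48 to 0.04 (adjusted p = 0.238). Hsp90b1, the gene of GRP94, which folds integrins and Toll-like receptors, had 467, 446, 380 and 459 CPM in B6 and 448, 338, 367 and 381 in C3H, in the same order, with the same libraries standing out (log2 fold change -0.19, adjusted p = 0.261). Hyou1, a nucleotide exchange factor for BiP, gave -0.17, Dnajb11, a co-chaperone of BiP, -0.15, the secreted stress protein gene Manf -0.16 and Creld2, a stress-induced isomerase-like gene, -0.19. Sdf2l1, which works with Dnajb11, gave -0.05, and Dnajb9, the co-chaperone that also holds IRE1 inactive, 0.12. Adjusted p-values of these 6 were 0.336 to 0.836. Manf exons overlap Dcaf1 on the opposite strand by 146 bases and Rbm15b on the same strand by 14, so a share of its counts is uncertain.

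The lectin chaperones, which hold glycoproteins by their sugars, did not pass. Calr, calreticulin, averaged 528 ± 73.4 CPM in B6 and 517 ± 60.8 in C3H (SD, n = 4 each; adjusted p = 0.896). Canx, its membrane-bound relative calnexin, had 318, 306, 259.7 and 286 CPM in B6 2, 3, 4 and 5 and 325, 239.9, 234 and 231 in C3H 1, 3, 4 and 5. C3H 1 was the highest of all 8 libraries and the other C3H libraries were the lowest. With all libraries the log2 fold change was -0.18 (adjusted p = 0.340), and without C3H 1 it was -0.32 (adjusted p = 0.0293).

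Of the 6 disulfide isomerases and oxidases, edgeR and DESeq2 each called 0, against 21.4% and 23.9% of all genes. In edgeR 1 had an unadjusted p under 0.05, against 33.1% of all genes. In so short a list a count of 0 says little. P4hb, the founding disulfide isomerase, had the highest level of the list per length, 1255 CPM per kilobase of merged exons over the 8 libraries. Next were Calr at 181, Pdia3 at 143, Hspa5 at 114 and Hsp90b1 at 102 CPM per kilobase, and Ppp1r15a was lowest at 1.91. P4hb had 3079, 3767, 3652 and 3510 CPM in B6 2, 3, 4 and 5 and 3243, 3166, 3788 and 4521 in C3H 1, 3, 4 and 5. The strains overlapped and C3H 5 was the highest (log2 fold change 0.07, adjusted p = 0.806). Pdia3, the isomerase that works with calreticulin and calnexin, averaged 450.5 ± 39.95 and 448 ± 43.2 CPM in B6 and C3H (SD, n = 4 each; interval of the log2 fold change -0.24 to 0.22).

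Pdia6, an isomerase that also acts on IRE1, had 105, 107, 81.8 and 113 CPM in B6 and 148, 105, 105 and 110.3 in C3H, in the same order of replicates. Its low and high libraries were again B6 4 and C3H 1 (log2 fold change 0.20, adjusted p = 0.342). Pdia4, a further isomerase, gave 0.05 (adjusted p = 0.805) and Ero1lb, the oxidase ERO1 beta of secretory cells, -0.13 (adjusted p = 0.337). Ero1l, the gene of the oxidase ERO1 alpha that recharges the isomerases, had 50.4, 45.9, 54.2 and 46.5 CPM in B6 and 55.7, 56.4, 56.6 and 67.7 in C3H. The strains did not overlap, but B6 4 and C3H 1 were close. On the log2 scale the difference was 0.26 ± 0.09 (standard error; adjusted p = 0.0672); it passed with library totals as the only scaling (0.32, adjusted p = 0.0162) and without B6 4 (0.31, adjusted p = 0.0492), and the adjusted p over all alternatives ran from 0.0162 to 0.654.

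Of the 9 genes of ERAD and translocation, 0 passed in edgeR (21.4% of all genes did). In edgeR 1 had an unadjusted p under 0.05 (33.1% of all genes did), and DESeq2 called 1 (23.9% of all genes). The gene was Herpud1 in both. Herpud1, a stress-induced scaffold of the degradation complex, had 112, 125, 183 and 134 CPM in B6 2, 3, 4 and 5 and 158, 166, 212 and 209 in C3H 1, 3, 4 and 5. B6 4 lay above C3H 1 and C3H 3, and the other B6 libraries lay below all C3H libraries. On the log2 scale the difference was 0.43 ± 0.16 (standard error; adjusted p = 0.0776), and leaving out B6 4 made it 0.59 (adjusted p = 0.00941). It also passed with library totals as the only scaling (0.48, adjusted p = 0.0134) and in DESeq2 (0.41, adjusted p = 0.0495), while the highest adjusted p over the alternatives was 0.642.

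None of the core genes of the degradation machine passed. Sel1l, the adaptor of the ubiquitin ligase complex, averaged 198 ± 27.7 CPM in B6 and 211 ± 11.6 in C3H, and Syvn1, the ligase HRD1 itself, 59.8 ± 2.91 and 67.9 ± 6.15 (SD, n = 4 each; adjusted p = 0.617 and 0.166). Edem1, which acts on glycoproteins that fail to fold, gave a log2 fold change of -0.08. The membrane proteins Derl1 and Derl2 gave 0.00 and -0.19. Selenos, a selenoprotein that ties Derl1 to the cytosolic extractor, gave 0.03, and Sec61b, a subunit of the translocon, -0.11. Derl2 and Syvn1 share 231 and 91 exon bases with Mis12 and Mrpl49 on the opposite strand. Derl3, a form found in secretory cells such as plasma and acinar cells, had 7.25, 7.20 and 7.26 CPM in B6 2, 3 and 5 and 5.86 in B6 4, and 7.42, 5.82, 4.86 and 4.16 in C3H 1, 3, 4 and 5. C3H 1 was the highest of all libraries, and without it the log2 fold change moved from -0.30 (adjusted p = 0.243) to -0.48 (adjusted p = 0.0435).

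**Figure D3:**
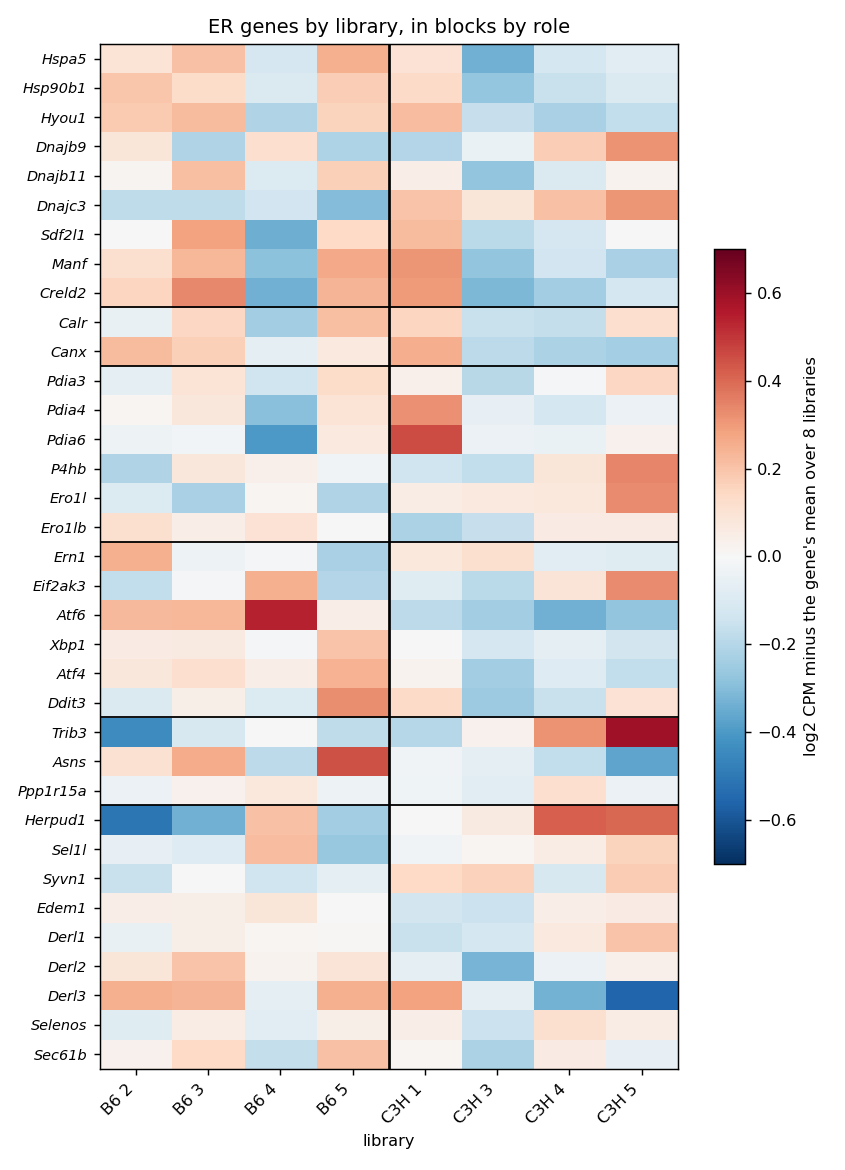
Each gene's log2 CPM minus its own mean over the 8 libraries (colour), for the 35 genes in blocks by role (rows) and the libraries (columns; the vertical line parts the strains). Most chaperone genes are low in B6 4 and C3H 3 and high in B6 3, B6 5 and C3H 1, whereas Herpud1 and Trib3 are highest in C3H 4 and C3H 5.

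Within strains, most luminal chaperone genes were high or low in the same libraries. The mean deviation of the 9 luminal chaperone genes from their own 8-library means was 0.07, 0.14, -0.17 and 0.10 on the log2 scale in B6 2, 3, 4 and 5. In C3H 1, 3, 4 and 5 it was 0.15, -0.20, -0.08 and -0.01. In B6 4, 8 of the 9 genes were below their own mean, and in C3H 1, 8 were above it. The range inside each strain was wider than the strain difference of any luminal chaperone except Dnajc3. The 10 genes with an ERSE match, of which 4 are also among these 9 chaperone genes, had mean deviations of 0.06, 0.11, -0.15 and 0.09 in B6 and 0.18, -0.13, -0.11 and -0.04 in C3H. The 21 with a promoter and no match gave -0.05, 0.03, -0.02 and 0.02 in B6 and 0.00, -0.12, 0.03 and 0.09 in C3H. The median log2 fold change between strains was -0.16 for the genes with a match and -0.01 for those without; all of these are descriptions, and depth and scaling are shared by all genes of a library.

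Markers of secretory, dividing and absorptive cells also differed between these libraries. Plasma cell markers, which include Jchain and Igha, summed to 6555, 6421, 5354 and 7974 CPM in B6 2, 3, 4 and 5 and to 5852, 4498, 4592 and 4061 in C3H 1, 3, 4 and 5. Igha was the largest part of these sums, with means of 5204 CPM in B6 and 3733 in C3H. Of the 8, 2 fell in C3H, Jchain and Tnfrsf17 (of all genes tested 10.1% fell and 11.3% rose). Of the rest, none passed. The log2 fold changes of Igha (-0.48), Iglc1 (-0.46), Prdm1 (-0.34) and Irf4 (-0.14) were negative, and those of Mzb1 (0.28) and Sdc1 (0.22) positive. In the plasma cell sum B6 4 was the lowest of its strain and C3H 1 the highest of its own, as for the chaperones. Proliferation markers were lowest in B6 4 (135 CPM) and highest in C3H 1 (271 CPM), with 139 to 224 CPM elsewhere. Paneth cell markers were 3215 CPM in B6 4 and 4814 in C3H 1, with 3214 to 4726 elsewhere. Of the 5 Paneth cell markers 1, Ang4, fell in C3H (log2 fold change -1.22, adjusted p = 0.00384). The log2 fold changes of Mmp7 (0.47), Defa24 (0.16) and Itln1 (0.11) were positive and that of Lyz1 (-0.19) negative, and none of these passed. The other C3H libraries did not keep the order of the chaperones. The luminal chaperones were lowest in C3H 3 (mean deviation -0.20). The plasma cell (4061 CPM), proliferation (139) and Paneth cell (3214) sums were lowest of C3H in C3H 5. In B6 4 and C3H 1 enterocyte markers ran the other way, with 70770 CPM in B6 4, the highest of B6, and 48890 in C3H 1, the lowest of all. Other marker lists separated the strains. Enteroendocrine markers summed to 202.7 to 275.9 CPM in B6 and 324.6 to 468.5 in C3H, and 5 of 5 rose in C3H. Tuft cell markers summed to 26.6 to 31.04 CPM in B6 and 10.5 to 12.96 in C3H, and 3 of 3 fell. T cell markers summed to 78.2 to 98.6 CPM in B6 and 40.3 to 59.3 in C3H, and 4 of 4 fell. These lists thus moved with the strain, as Dnajc3 and Atf6 did. In bulk tissue fewer cells of a type and less RNA per cell cannot be told apart, and the part of these cell types in the levels of the ER genes was not tested.

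**Figure D4:**
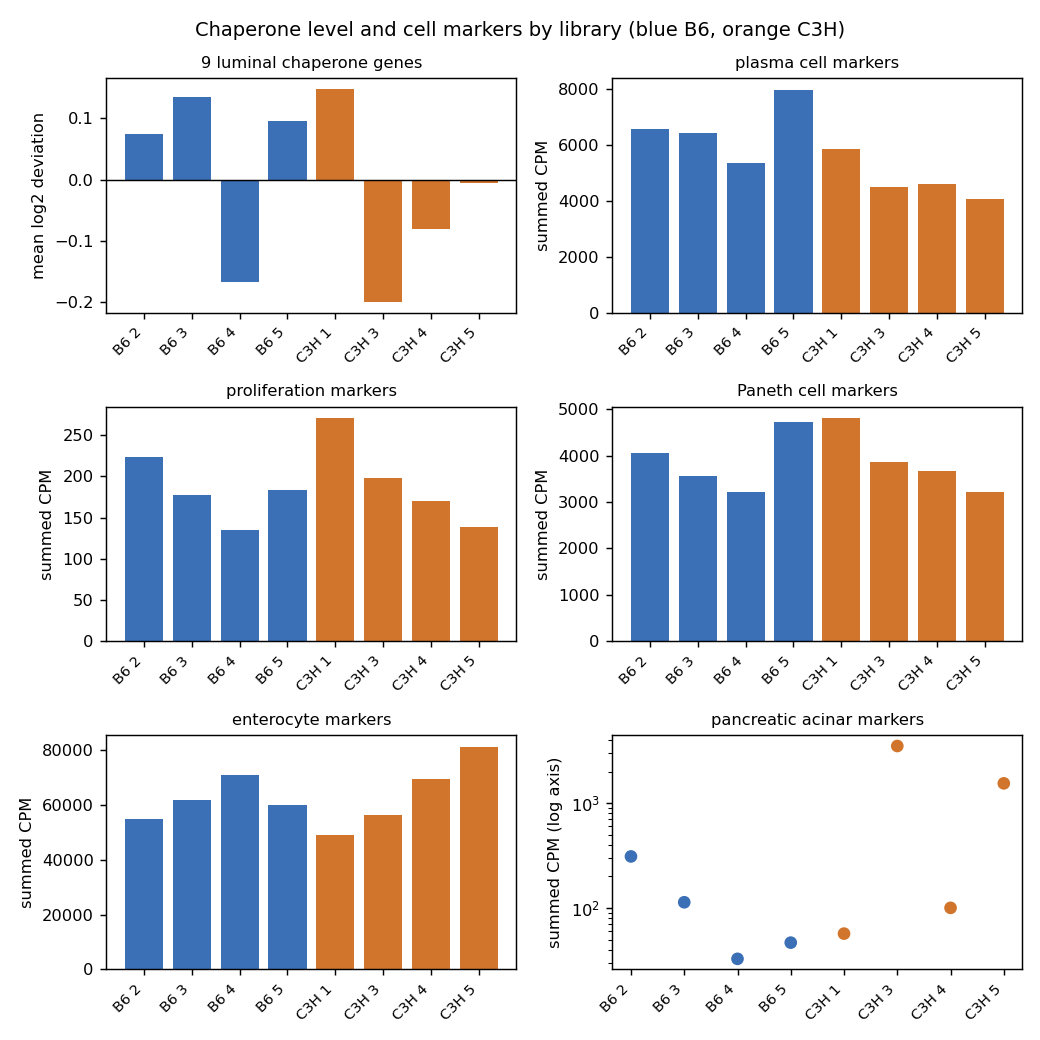
Mean log2 deviation of the 9 luminal chaperone genes and summed CPM of 5 marker lists (vertical axes; the pancreatic panel has a log axis) in each library, blue for B6 and orange for C3H. Plasma cell and proliferation markers are lowest among the B6 libraries in B6 4 and highest among the C3H libraries in C3H 1, and pancreatic markers are highest in C3H 3 (3504 CPM).

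Pancreatic acinar cells are also rich in ER chaperones. Their markers were highest in C3H 3 (3504 CPM), where the luminal chaperones had their lowest mean deviation (-0.20), and next highest in C3H 5 (1544 CPM), where that deviation (-0.01) was exceeded among the C3H libraries by C3H 1. The part of pancreatic RNA in these levels was not tested. The fits that follow show only whether calls held, and without the 4 pancreas-rich libraries those of Dnajc3 and Atf6 were lost. With C3H 3 and C3H 5 left out, Dnajc3 and Atf6 were the 2 members called, against 13.4% of all genes (log2 fold changes 0.40 and -0.53, adjusted p = 0.0249 and 0.0329), and with the log2 pancreatic marker sum as a covariate they were 0.41 and -0.50 (adjusted p = 0.0204 and 0.0208), again the 2 members called, against 14.7% of all genes. Pdia2, a disulfide isomerase of the pancreas that is not among the 35 and was named after its values were seen, had 14.4 CPM in C3H 3 and 5.64 in C3H 5 against 0.157 to 1.97 elsewhere, and did not pass (log2 fold change 2.03, standard error 0.98, adjusted p = 0.178).

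A wider list of 142 other genes of ER folding, glycan quality control, translocation, ERAD and stress signalling, of which 141 were tested, gave 3 higher and 15 lower in C3H. That is 12.8% against 21.4% of all genes, and the median log2 fold change was -0.06. With library totals as the only scaling the split was 5 higher and 5 lower, against 20.0% of all genes. The count of lower genes was 6 without B6 3, 9 without C3H 3, 8 without C3H 4 and 9 without C3H 5, where 17.2%, 17.1%, 18.7% and 20.0% of all genes were called in either direction. It was 7 without C3H 3 and C3H 5 together (13.4% of all genes called), and 6 with the pancreatic covariate (14.7%). Without the 4 pancreas-rich libraries 1 was higher and 3 were lower (9.02% of all genes called).

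The 3 that rose were Bcl2l11, the gene of the cell death protein BIM (1.81-fold higher, with means of 8.95 ± 0.87 CPM in B6 and 16.2 ± 1.51 in C3H, SD, n = 4 each; adjusted p = 0.000120), Mesd, a chaperone of lipoprotein receptors (1.39-fold), and Nucb2, a calcium-binding protein (1.37-fold). Of those that fell, Mcfd2, which forms the cargo receptor for export from the ER with Lman1, went from 232 ± 17.8 to 139.6 ± 16.9 CPM (1.67-fold lower, adjusted p = 0.000391). Bcl2l11 and Mcfd2 passed in all 19 alternatives. Ube2j2, a ubiquitin-conjugating enzyme of ERAD, fell 1.44-fold, and Bak1, a pore-forming cell death protein, 1.48-fold. Sel1l3, a relative of Sel1l, fell 1.31-fold and Qsox1, a sulfhydryl oxidase of the secretory route, 1.24-fold. Without the 4 pancreas-rich libraries the calls of Nucb2, Mesd, Bak1, Sel1l3, Qsox1 and Chac1 were lost (adjusted p = 0.0689 to 0.309), that of Nucb2 also without C3H 3 and C3H 5 together (0.0978) and that of Qsox1 also with library totals as the only scaling (0.1405). In all, Nucb2, Mesd and Qsox1 passed in 16 of 19 alternatives each.

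Chac1, a glutathione-degrading enzyme induced by ATF4, was the 1 of 16 other ATF4 targets that passed (6.25%, against 21.4% of all genes). It had 1.09, 0.809, 0.776 and 1.02 CPM in B6 2, 3, 4 and 5 and 0.412, 0.384, 0.409 and 0.349 in C3H 1, 3, 4 and 5, from 171 and 70 counts in all. Every C3H value was below every B6 value, and the fall was 2.36-fold (log2 fold change -1.24, standard error 0.20, adjusted p = 0.000989).

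The epithelial relatives of the listed genes gave 1 fall. Ern2, the IRE1 form of mucus-secreting epithelium, did not pass (11.9 ± 0.74 CPM in B6 and 12.3 ± 0.90 in C3H, SD, n = 4 each; adjusted p = 0.769). Agr2, an isomerase of goblet cells needed for mucin folding, fell 1.32-fold, from a mean of 216.5 ± 20.9 CPM to 164 ± 23.6 (adjusted p = 0.0291). Goblet cell markers summed to 10080 to 12370 CPM in B6 and 8020 to 11030 in C3H. Of these 6 markers 1, Zg16, fell in C3H (log2 fold change -0.62, adjusted p = 0.0234), against 10.1% of all genes tested. The part of goblet cells in the fall of Agr2 was not tested. Agr2 was no longer called when any single library other than B6 4 and C3H 1 was left out (adjusted p = 0.0596 to 0.0761), with library totals as the only scaling (0.1345), with the pancreatic covariate (0.141), without C3H 3 and C3H 5 together (0.244), or without the 4 pancreas-rich libraries (0.555).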

How the data were processed

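The data were 8 RNA-sequencing libraries of naive mouse jejunum, 4 per strain, made per the labels' protocols from 200 ng of RNA (integrity above 7) with a stranded mRNA kit. The deposited values are raw counts per Ensembl gene; the submitters' processing notes name STAR 2.7.9a, HTSeq 2.0.2 and GRCm39. Symbols and merged exon lengths came from GENCODE M21 (GRCm38), which names 51948 identifiers. A second identifier named Ddit3 had 0 counts and was left out.

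Library sizes were scaled by TMM (factors 0.915 to 1.13). Genes were kept by filterByExpr (minimum count 10) and tested in edgeR 4.0.16 under R 4.3.3 with glmQLFTest, with p-values adjusted by Benjamini-Hochberg. Standard errors are the log2 fold change over the root of F. Libraries of 1 strain differed by more than counting noise (chi-square per degree of freedom 23.3 to 89.6). The method was tested on simulated data, in which it recovered 0% of 1.25-fold, 30% of 1.5-fold and 81.25% of 2-fold changes. Only 109 genes were called there, against 3857 in the real data, so the unadjusted p needed to pass was smaller in the simulation. The changed genes were also drawn at random from all levels. The simulation therefore does not measure the power to find changes in these genes.

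The members and lists were chosen with earlier results of these data known. Named were all members and, of the other pathway genes, up to 6 per direction with the smallest adjusted p, plus Ern2 and Agr2. Alternatives were DESeq2 size factors, library totals, no filter, a mean count of 100 or more, the tests of DESeq2 1.42.0 and limma-voom (limma 3.58.1), a replicate block, leaving out each library or the pancreas-rich ones, and a pancreatic covariate. Promoters of 300 bases came from RefSeq.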

Additional observations from a re-analysis of the deposited data

Results flagged for a closer look

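In 7 of 70 sets of 4 libraries (35 genes in 2 strains) 1 library stood apart from the other 3 by a gap past Dixon's 95% critical value, where chance gives about 1 in 20. The sets share the same libraries and are not independent, and 4 of the 7 flags fell in C3H 1, so the number of flags is a description. In C3H 1, 4 genes were high: Hyou1 at 128.2 CPM against 94.1 to 98.4 in the other C3H libraries, Canx at 324.9 against 231 to 239.9, Pdia4 at 89.3 against 65.8 to 69.6 and Pdia6 at 148.2 against 105 to 110.3. Plasma cell, Paneth cell and proliferation markers were also highest among the C3H libraries in C3H 1, and their part was not tested. Ero1l was high in C3H 5 (67.68 CPM against 55.7 to 56.6). Syvn1 was low in C3H 4 (58.75 CPM against 70.0 to 71.8). In B6 4, Derl3 was low (5.859 CPM against 7.20 to 7.26).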

How the results depend on the processing

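Over 19 alternatives Atf6 and Dnajc3 kept their directions and lost their calls in 1 each, without the 4 pancreas-rich libraries. With all libraries 1 member was higher and 1 lower in C3H, against 21.4% of all genes called. The higher and lower counts were 4 and 1 with library totals only (20.0% of all genes) and 2 and 2 in DESeq2 (23.9%). In the 6 libraries whose replicate numbers both strains have, they were 1 and 2 without a block (17.75%). There Atf4 passed (-0.32, adjusted p = 0.0401). With the replicate block they were 2 and 1 (16.1%), and Herpud1 passed (0.40, adjusted p = 0.0478). Without the 4 pancreas-rich libraries they were 0 and 0 (9.02%). With 1 library left out at a time, 1 to 3 members were higher and 1 to 4 lower, against 17.1% to 20.0% of all genes. Same-numbered libraries deviated from their strain means with correlations of 0.00576, 0.18 and -0.0517 for replicates 3, 4 and 5, so the numbers were not taken to pair the libraries; of these 6 libraries, B6 4 and C3H 4 correlated best with their own number.

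Of the other pathway genes 3 were higher and 15 lower, against 21.4% of all genes called. The counts were 5 and 5 with library totals only (20.0% of all genes), 5 and 21 in DESeq2 (23.9%) and 5 and 15 in limma-voom (21.5%). They were 1 and 3 without the 4 pancreas-rich libraries (9.02%) and 3 and 7 without C3H 3 and C3H 5 (13.4%). With the pancreatic covariate they were 3 and 6 (14.7%). With the replicate block they were 2 and 10 (16.1%), and Nucb2, Mesd and Qsox1 lost their calls (adjusted p = 0.0549, 0.0776 and 0.0522). Mesd was also lost in the same 6 libraries without the block (0.0603). With 1 library left out the counts were 3 to 5 higher and 6 to 14 lower, against 17.1% to 20.0% of all genes. Fewer libraries give less power, and the cause of the other differences was not tested.

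The sign of the log2 fold change turned for 15 of the 35 members, none of them called with all libraries fitted, and for Ern2. Without the 4 pancreas-rich libraries it was 0.02 for Hyou1, 0.14 for Sdf2l1, 0.0789 for Manf, 0.0668 for Creld2, 0.0263 for Canx, 0.0047 for Pdia3, -0.0364 for P4hb, -0.0444 for Eif2ak3, 0.0136 for Ppp1r15a, -0.0603 for Derl1 and -0.0373 for Ern2. With library totals only it was 0.0121 for Sdf2l1, 0.0278 for Calr, 0.046 for Pdia3 and 0.0477 for Ppp1r15a. Without C3H 3 and C3H 5 it was 0.0263 for Sdf2l1, 0.0063 for Manf, 0.0064 for Pdia3, -0.0007 for Ern1, 0.0361 for Ppp1r15a and -0.0423 for Derl1. With the pancreatic covariate it was 0.0195 for Pdia3, -0.0477 for Ern1, 0.0295 for Ppp1r15a and -0.0148 for Derl1. In the 6 libraries with no block it was -0.0601 for Pdia4 and -0.0166 for Selenos. With the replicate block it was -0.0499 for Pdia4 and -0.0187 for Selenos. With DESeq2 size factors it was -0.0094 for Ern1 and -0.0136 for Derl1. Without a filter it was -0.0237 for Ern1 and -0.0291 for Derl1. In the DESeq2 test it was -0.0085 for Ern1 and -0.0138 for Derl1. With 1 library left out the log2 fold change ran from -0.16 to 0.0365 for Sdf2l1, -0.11 to 0.0324 for Calr, -0.0619 to 0.0331 for Pdia3, -0.0651 to 0.10 for Pdia4, -0.0443 to 0.12 for P4hb, -0.0658 to 0.0796 for Ern1, -0.0344 to 0.17 for Eif2ak3, -0.16 to 0.0133 for Ddit3, -0.059 to 0.0061 for Ppp1r15a, -0.07 to 0.0414 for Derl1, -0.0104 to 0.0671 for Selenos and -0.0214 to 0.0884 for Ern2.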
